A study of Mus musculus with 8 samples.

Results

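The libraries described here are 1 of glia isolated from mouse brain and 2 of mouse embryonic fibroblasts (MEFs), 3 of the 8 RNA sequencing libraries of the series, each the only library of its group. The glia came from brain of strain C57. The ICR MEF and OG2 MEF libraries are named for their strains, ICR and OG2, and both were taken from embryos at day 13.5. OG2 is known in the field as a mouse line that carries a green fluorescent reporter for the pluripotency gene Pou5f1, which the labels do not state. Age and sex of the brain donors, the way glia were isolated, culture conditions and the number of pooled animals are not stated in the labels, and no treatment is named for any of the 3. All were lysed in Trizol and sequenced from 1 ug of total RNA after TruSeq library preparation. Tissue and strain differ together between glia and MEFs, and age may differ as well, so their parts in any difference cannot be told apart. Since each group is 1 library, replicates cannot be compared and p-values are left out.

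Glia are the non-neuronal cells of the nervous system. Astrocytes take up glutamate and potassium and line vessels and brain surfaces with water channels, oligodendrocytes make myelin, and microglia are the resident macrophages of the brain. Astrocytes and oligodendrocytes arise from the neural tube under SOX, OLIG, NFI and PAX factors, whereas microglia arise from yolk sac progenitors. Embryonic fibroblasts are mesenchymal cells that lay down fibrillar collagen, depend on TWIST, SNAI and PRRX factors, and keep in culture the HOX code of the body level they came from. Both cell kinds divide and form actin stress fibres when grown on a dish.

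Levels are given as TPM, the usual read share scaled for gene length. Values are listed in the order glia, ICR MEF, OG2 MEF. A gene was called higher in glia at 10 TPM or more there and at least 4-fold above the higher MEF library, and lower at 10 TPM or more in both MEF libraries and at least 4-fold below the lower of them, on TPM with 1 added. A gene was at a shared level when all 3 libraries had 10 TPM or more and glia lay within 2-fold of each MEF library. Of 29713 genes, 1070 were called higher (3.60%), 311 lower (1.05%) and 5379 shared (18.1%). Among 21343 protein-coding genes these shares were 4.84%, 1.35% and 24.9%, and they are the background for the list counts that follow. Of the 7527 genes at 10 TPM or more in all 3 libraries, 71.5% were at a shared level. Of the higher calls, 180 lay within 0.25 log2 units inside the 4-fold line, with 223 genes as close outside it, and of the lower calls 53, with 62 outside. List medians are over every measured member and give the log2 ratio of glia to the MEF mean on the same scale. Folds for single genes are TPM ratios to the nearer MEF library with exact (Clopper-Pearson) 95% intervals that cover counting error only.

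Expected counts totalled 5864673 in glia, 4805982 in ICR MEF and 5404041 in OG2 MEF, so that for a gene of 2000 bases 3 counts amount to between 0.461 and 0.543 TPM. Ribosomal protein genes took 7.33% of TPM in glia, 19.8% in ICR MEF and 20.8% in OG2 MEF, so other genes had more of the total in glia. The median log2 ratio of glia to the MEF mean was 0.42 over the 9352 genes with a mean of 10 TPM or more. Under TMM factors of the TPM, which equalise the bulk of genes and were added after seeing the data, that median was -0.14, with 678 genes called higher and 471 lower. Higher calls were 77.5% of the calls on TPM and 59.0% on that scale. The MEF libraries lay within 2-fold of each other at 97.6% of these 9352 genes, and glia within 2-fold of the nearer one at 71.1%. Xist, the RNA that silences an X chromosome in females, was at 0.13 TPM in glia against 21.2 and 16.8, and the Y-linked gene Ddx3y was at 42.2, 22.9 and 7.95 TPM. By these values the make-up by sex also differed between glia and MEFs, and its part cannot be told apart from that of tissue and strain.

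The label of the glia library was checked against markers of brain cells. Genes of astrocytes and microglia were abundant, whereas myelin genes were not: 1 of 18 oligodendrocyte lineage genes was called higher. The whole list summed to 165 TPM in glia, 66.8 in ICR MEF and 77.9 in OG2 MEF, against 5166 in cortex tissue of the same series. Neuronal genes summed to 482, 178 and 163 TPM in the same order, against 9502 in cortex, and Rbfox3, which encodes the neuronal nuclear antigen NeuN, was at 0 in all 3. In bulk RNA, fewer cells of a type and less RNA per cell cannot be told apart. The bars of calls by gene list show where glia and fibroblasts parted and where they met.

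**Figure D1:**
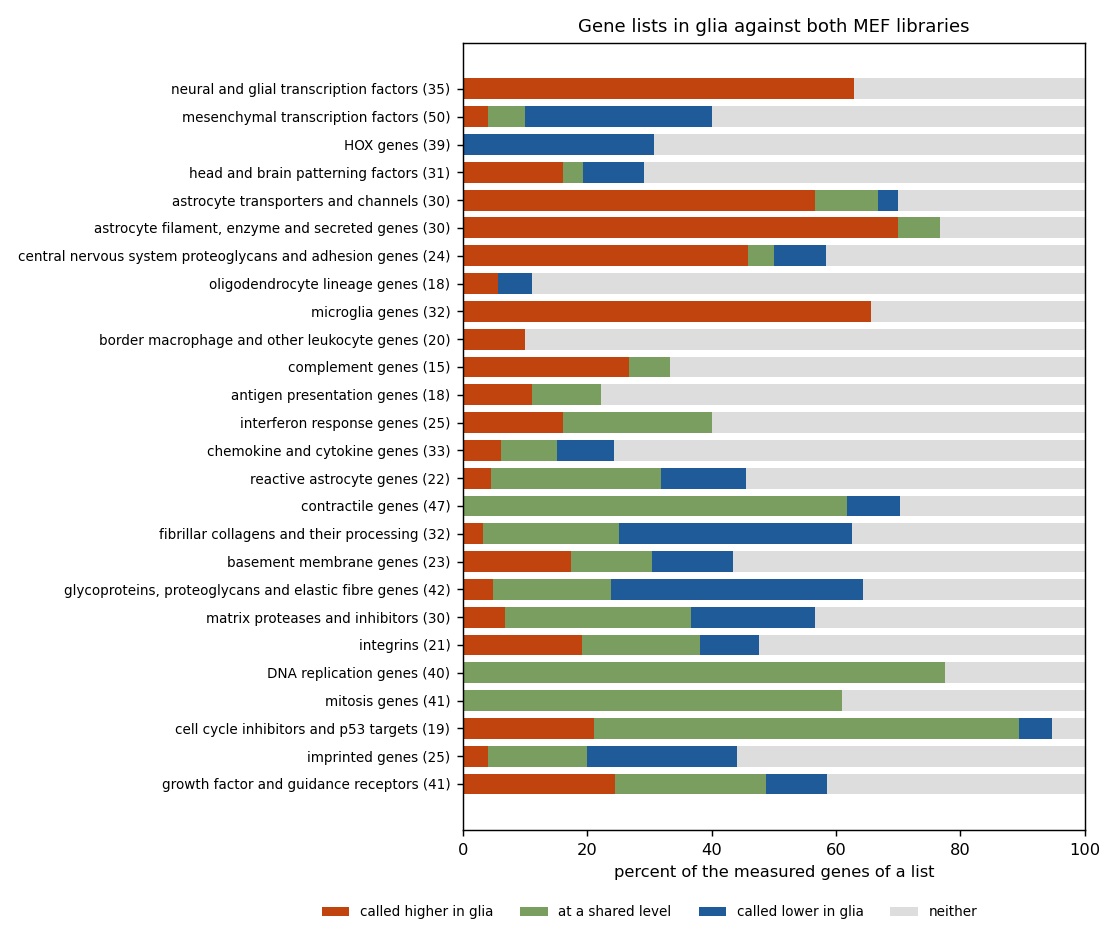
Percent of the measured genes of each list that were called higher in glia, at a shared level or called lower in glia, with list sizes in brackets and 1 library per group. Neural and glial transcription factors hold no lower call and HOX genes hold no higher or shared call, whereas DNA replication and mitosis genes hold shared calls alone.

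Transcription factors of the neural lineage set glia apart from both fibroblast libraries. Of 35 measured factors, 22 were called higher (62.9%), none lower and none shared, and the median log2 ratio to the MEF mean was 3.94, against 0.07 over protein-coding genes. Olig1, a basic helix-loop-helix factor of oligodendrocyte and astrocyte precursors, was at 631, 0.72 and 0.31 TPM. Glia was the high library, 877-fold over ICR MEF (342 to 3220.4), and the MEF values rest on 4 and 2 counts. Sox2, which keeps neural progenitors in their state and is found in astrocytes, was at 225, 0.63 and 0.40 TPM, 357-fold apart (139 to 1312). Olig2, the partner of Olig1, was at 102, 0.16 and 0.27 TPM. These 3 genes lay at 123, 40.5 and 26.2 TPM in cortex, below their levels in glia.

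The factors of radial glia and forebrain progenitors followed. Nr2e1, a nuclear receptor of neural stem cells, was at 66.2, 0 and 0.10 TPM, and Pax6, which patterns the dorsal forebrain, at 63.3, 0 and 0.31 TPM. Sox9, which is needed for the start of gliogenesis and is also used by cartilage and fibroblast precursors, was at 94.4, 9.93 and 6.91 TPM, 9.51-fold apart (7.80 to 11.7). Unlike Olig1 and Sox2, Sox9 was thus not near 0 in the fibroblasts. Nfib, a nuclear factor I protein of astrocyte differentiation, was at 87.2, 18.3 and 14.3 TPM. Nfia, its relative, was at 29.3, 11.2 and 8.82 TPM and missed the 4-fold line.

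Some members were not called higher. Sox10, the master factor of oligodendrocytes and Schwann cells, was at 0 in glia, 1.14 TPM in ICR MEF and 1.09 TPM in OG2 MEF, against 33.6 TPM in cortex. Hes5, a Notch target of progenitors, was at 4.62, 0 and 0 TPM and at 33.0 TPM in cortex. Zic1, which marks cerebellar and meningeal cells, was at 5.15, 4.29 and 6.41 TPM, so glia lay between the fibroblasts. Glia held Olig1 and Olig2 with 0 counts of Sox10.

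Mesenchymal transcription factors ran the other way, though not as a block. Of 50 measured, 15 were called lower (30%), 2 higher (1 under TMM factors of the TPM) and 3 shared (7 with CPM), with a median log2 ratio of -1.84. Twist2, which keeps mesenchymal cells undifferentiated, was at 0.31, 83.2 and 88.9 TPM, 268-fold apart (47.7 to 10635) on 1 count in glia. Its MEF counts were not whole, so part of its reads was assigned by estimate. Snai1 and Snai2 are zinc finger repressors of epithelial genes. Snai1 was at 1.48, 59.4 and 49.6 TPM, 33.5-fold apart (15.2 to 92.2). Snai2 was at 1.73, 51.9 and 36.8 TPM, 21.3-fold apart (11 to 47.1). Hand2, Pitx1 and Shox2, which shape limb and branchial arch mesenchyme, were at 0 in glia and between 10.6 and 17.3 TPM in the fibroblasts.

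Other mesenchymal factors remained in glia. Prrx1, a homeobox factor of limb and craniofacial mesenchyme, was called lower but was still at 38.7 TPM, against 224 and 221. Twist1, which drives mesenchymal fate in the embryo, was at 22.1, 62.8 and 54.2 TPM and was not called. Foxc1, a forkhead factor of meninges, pericytes and mesoderm, was at 14.9, 14.6 and 16.5 TPM, with glia between the fibroblast libraries. Zeb1 and Zeb2, which repress epithelial genes and are also made by glia, were at 58.8 and 48.3 TPM in glia and between 19.3 and 30.2 TPM in the MEFs. Nr2f1, an orphan nuclear receptor that patterns the cortex as well as mesenchyme, was called higher, at 132, 6.32 and 11.2 TPM.

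**Figure D2:**
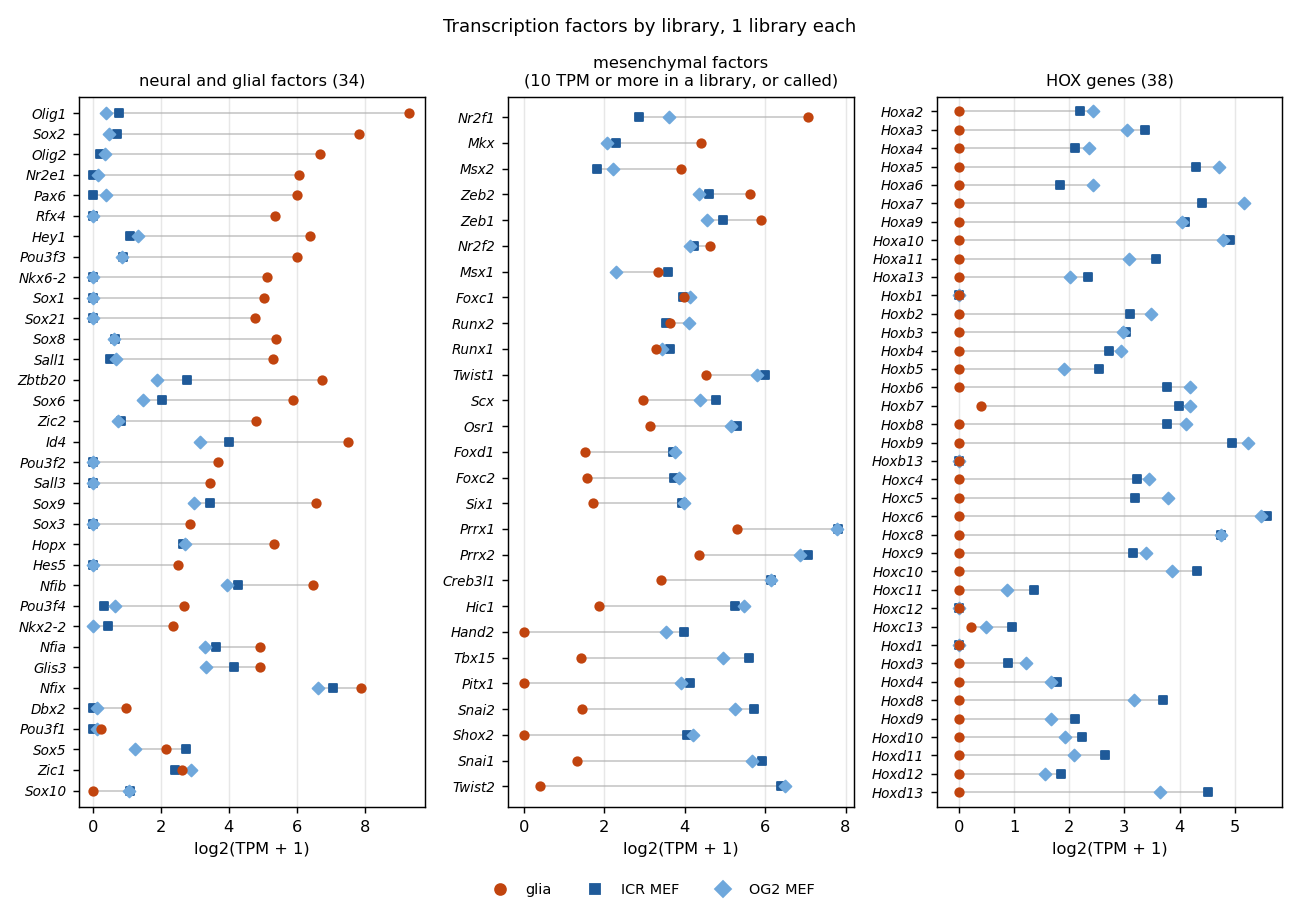
TPM with 1 added, on a log2 axis, of 34 of the 35 neural and glial factors, of mesenchymal factors that were called or reached 10 TPM in a library, and of 38 of the 39 HOX genes, in glia (circles), ICR MEF (squares) and OG2 MEF (diamonds), 1 library each. Glia lies right of both fibroblast libraries for Olig1 and Sox2 and left of them for Twist2 and Snai1, and sits at 0 for 36 of the 38 HOX genes plotted.

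HOX genes were at or near 0 in glia. They are homeobox factors in 4 clusters whose expression records the level of the body axis from the hindbrain towards the tail. Of 39 HOX genes, 36 were at 0 in glia, and the list summed to 0.860 TPM there on 4 expected counts, against 387 TPM in ICR MEF and 398 TPM in OG2 MEF. Of the list, 12 were called lower (30.8%), 35 lay below both MEF libraries and the other 4 were at 0 in all 3 libraries. Of all 29713 genes, 13% (3849) lay below both MEF libraries and 40.3% above both, and of protein-coding genes 16.6% and 48.3%. The calls were limited by the low levels in the fibroblasts, since a call needs 10 TPM in each. With a floor of 1 TPM in its place 25 were called.

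The Hoxb cluster (chr11:96194316-96368256, GRCm38) summed to 0.320, 95.2 and 114 TPM over 10 genes, and the Hoxc cluster (chr15:102921103-103036852) to 0.160, 119 and 116 TPM over 9. The Hoxd cluster (chr2:74668310-74765142) summed to 51.8 and 33.2 TPM in the MEFs and held no counts in glia. Hoxc6, a gene of the chest level, was at 0, 46.9 and 43.5 TPM, at least 33.3-fold lower in glia when 0 is set to 3 counts. Hoxb9 was at 0, 30 and 36.8 TPM, at least 63.2-fold lower. Hoxd13, a gene of the limb tip and tail end, was at 0, 21.8 and 11.5 TPM.

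Genes that pattern the head and brain split in both directions, with 5 of 31 called higher, 3 lower (5 with CPM) and a median log2 ratio of 0.15. Lhx2, a LIM homeobox factor that selects cortical fate, was at 128, 1.63 and 4.63 TPM. Six3 and Otx1, homeobox factors of the forebrain, were at 34.7 and 19.2 TPM in glia and 0 in both MEFs. In cortex Lhx2, Six3 and Otx1 were at 49.3, 13 and 3.53 TPM, so these 3 genes were higher in glia than in cortex. The Iroquois genes, homeobox factors of neural and limb patterning, were low in glia. Irx2 was at 0.15, 34.2 and 28.0 TPM and Irx1 at 0.16, 31.0 and 25.0 TPM. En1, the midbrain and limb ectoderm factor, was at 0.15, 8.82 and 7.66 TPM, under the floor for a call.

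Transporters and channels of astrocytes formed another wide difference. Of 30 measured, 17 were called higher (56.7%), 3 shared and 1 lower, with a median log2 ratio of 3.92. Kcnj10, the inward rectifier that clears potassium, was at 254, 0.07 and 0 TPM, 3625-fold apart (650.3 to 143229) on 1 count in ICR MEF. Aqp4, the water channel of astrocyte endfeet, was at 231, 0.07 and 0.13 TPM. Mlc1, a membrane protein of the same endfeet, was at 586, 0.55 and 0.83 TPM, 706-fold apart (343 to 1758). All 3 lay above their cortex levels of 87.6, 88.6 and 146 TPM, where cortex is whole tissue and glia an isolated fraction.

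The 2 glutamate transporters parted from each other. Slc1a3, the one that dominates in immature and cerebellar astrocytes, was at 490.4, 7.77 and 10.6 TPM, beside 409 TPM in cortex. Slc1a2, the main glutamate transporter of the adult forebrain, was at 33.0, 0.39 and 0.90 TPM, beside 637 TPM in cortex. Both were called higher than in fibroblasts, but the order of the 2 was reversed between glia and cortex. Other transporters of mature astrocytes were low in glia as well. The GABA transporter Slc6a11 was at 0.36 TPM and 119 TPM in cortex. The amino acid exchanger Slc7a10 was at 0.89 TPM against 42.7 TPM in cortex. Neither was called against the fibroblasts, which held at most 0.24 TPM of Slc7a10 and 0.16 TPM of Slc6a11.

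Of the 3 gap junction genes in the list, Gja1 was at a like level in all libraries, Gjb6 was near 0 and Gjb2 was called lower. Gja1, which encodes connexin 43 of astrocytes and of fibroblasts, was at 154, 161 and 164 TPM, within 1.04-fold (0.965 to 1.13) of the nearer MEF library. Gjb6, the astrocyte connexin 30, was at 0, 0.19 and 0 TPM, beside 61.8 TPM in cortex. Gjb2, connexin 26 of meninges and epithelium, was at 0.48, 11.9 and 12.6 TPM.

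**Figure D3:**
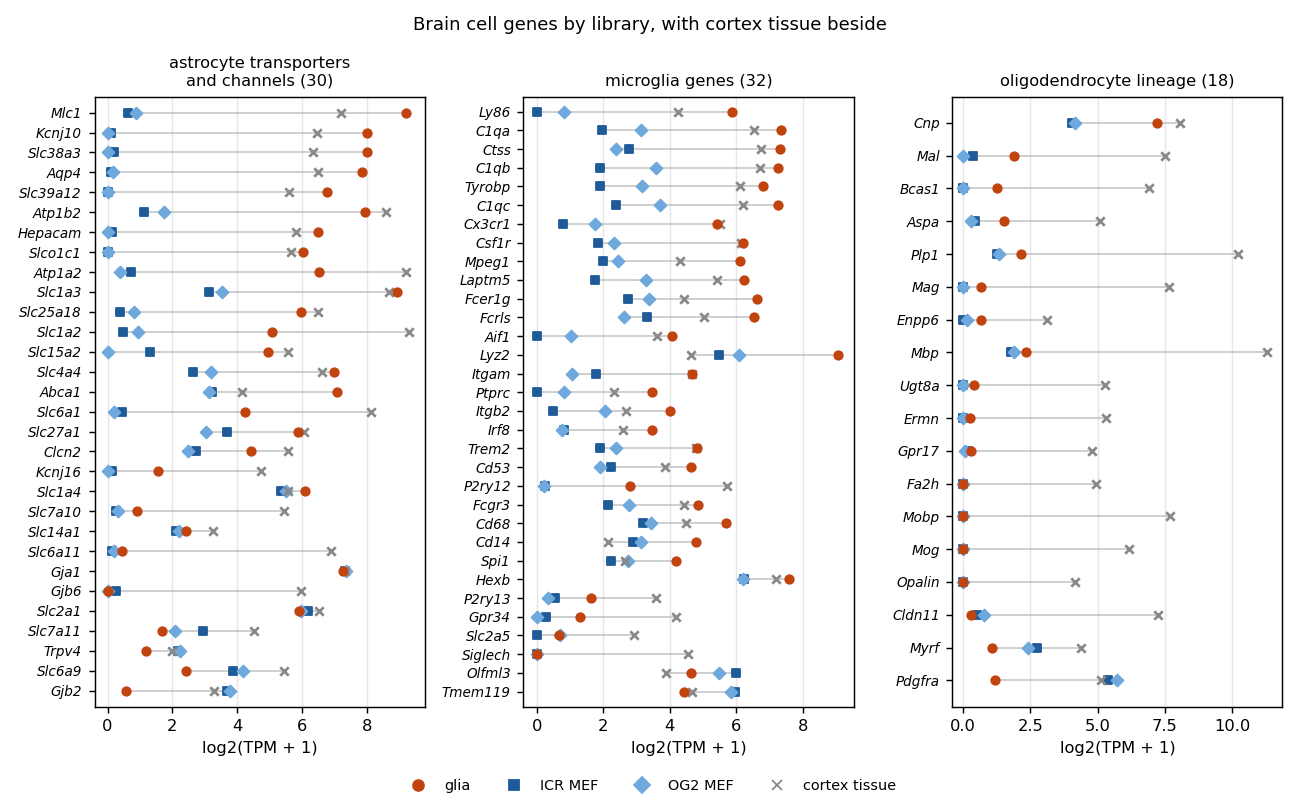
TPM with 1 added, on a log2 axis, of astrocyte transporters and channels, microglia genes and oligodendrocyte lineage genes in glia (circles), ICR MEF (squares), OG2 MEF (diamonds) and cortex tissue (crosses), 1 library each. Glia meets or passes cortex for Mlc1, Kcnj10 and most microglia genes, and lies far below cortex for Slc1a2, Gjb6 and the myelin genes.

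Filament, enzyme and secreted genes of astrocytes had 21 of 30 called higher (70.0%), 2 shared and none lower, with a median log2 ratio of 4.15. Gfap, the intermediate filament by which astrocytes are known, was at 1492, 2.48 and 1.49 TPM, 602-fold apart (376 to 1033). Vim, the filament of mesenchymal cells and immature astrocytes, was at 10414, 5814 and 6037 TPM, a shared level in all 3, against 58.8 TPM in cortex. Nes, a filament of neural stem cells, was at 562, 63.8 and 49.8 TPM, 8.81-fold apart (8.26 to 9.41), and at 6.31 TPM in cortex. Of these 3 filament genes, Vim was high in all libraries, and Gfap and Nes were highest in glia, with Nes also present in the fibroblasts.

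The metabolic and secreted products Fabp7, Mt3 and Apoe were above 2000 TPM in glia. Fabp7, the fatty acid binding protein of radial glia, was at 2899.9, 3.39 and 3.43 TPM, 845-fold apart (410.0 to 2104). Mt3, the brain metallothionein, was at 2267, 0.97 and 0.85 TPM. Its log2 ratio of 10.17 headed the genes called higher outside predicted and ribosomal genes. Apoe, the lipid carrier made by astrocytes, was at 2722, 48.6 and 56.7 TPM, 48.0-fold apart (41.0 to 56.6). Glul, which turns glutamate into glutamine, was at 469.9, 23.8 and 24.1 TPM. Some markers of adult astrocytes were near the fibroblast level. S100b was at 6.02, 3.84 and 2.59 TPM, and Ntsr2 at 1.56, 0 and 0 TPM, beside 196 and 128 TPM in cortex.

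Adhesion and matrix genes of nervous tissue had 11 of 24 called higher, 2 lower and 1 shared. Ncan, a lectican of the brain matrix, was at 223, 0.10 and 0.09 TPM, with 2 counts in each MEF library. Cdh2, N-cadherin, was at 601, 55.5 and 61.7 TPM, 9.73-fold apart (9.04 to 10.5). Vcan, the lectican of loose mesenchyme and of oligodendrocyte precursors, was at 8.75, 163 and 141 TPM, 16.1-fold lower in glia (14.1 to 18.6). Cspg4, the NG2 proteoglycan of oligodendrocyte precursors and pericytes, was at 5.92, 38.9 and 27.5 TPM. Ncan and Vcan, which belong to 1 family, therefore sat on opposite sides.

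The oligodendrocyte list was low like Sox10. Pdgfra, the receptor by which both oligodendrocyte precursors and fibroblasts are recognised, was at 1.27, 40.4 and 51.4 TPM, 31.9-fold lower in glia (21.1 to 50.6). Mbp, the myelin basic protein, was at 4.02, 2.41 and 2.68 TPM, beside 2543 TPM in cortex, and Mog, a protein of the outer myelin layer, was at 0 in all 3. Cnp, a myelin-associated phosphodiesterase that other cells also make, was the higher call, at 147, 15.7 and 16.9 TPM.

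Receptors for growth and guidance signals had 10 of 41 called higher, 4 lower and 10 shared. Ntrk2, the neurotrophin receptor whose short form is made by astrocytes, was at 178, 0.41 and 0.50 TPM, 356-fold apart (199 to 713). Fgfr3, an astrocyte receptor for fibroblast growth factors, was at 71.8, 1.70 and 1.10 TPM. Epha4, an ephrin receptor, was at 59.3, 4.20 and 4.35 TPM. Pdgfrb, the receptor of mesenchymal and mural cells, was at 25.1, 142 and 106 TPM, 4.23-fold lower (3.78 to 4.74), so glia kept a part of it.

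Immune genes of the macrophage line were higher in glia. Of 32 microglia genes, 21 were called higher (65.6%), none lower or shared, and the median log2 ratio was 2.91. Higher calls numbered 17 under TMM factors of the counts, and 15 under TMM factors of the TPM, with 1 shared. The list summed to 2273 TPM in glia, 316 in ICR MEF and 362 in OG2 MEF, against 1147 in cortex. Ctss, a lysosomal protease, was at 158, 5.77 and 4.17 TPM, 27.3-fold apart (17.3 to 45.8). C1qa, a chain of the complement starter C1q, was at 161, 2.89 and 7.84 TPM, 20.5-fold apart (13.4 to 33.2). Csf1r, the receptor on which microglia depend, was at 73.3, 2.60 and 4 TPM. Lyz2, lysozyme of macrophages, was at 538, 43.3 and 66.9 TPM.

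These genes were not at 0 in the fibroblasts, and the resting markers of microglia were weak in glia. For C1qb, which makes another C1q chain, the MEFs held 2.74 and 11.1 TPM on 7 and 33 counts, against 152 TPM in glia. P2ry12, a purine receptor of resting microglia, was at 5.92, 0.19 and 0.16 TPM, beside 51.8 TPM in cortex. Siglech, a lectin of microglia, was at 0 in all 3 and 22.3 TPM in cortex. Tmem119 and Olfml3, which are used as microglial markers in brain, were higher in the fibroblasts. Tmem119 was at 20.5, 61.1 and 56.6 TPM, and Olfml3 at 23.8, 62.3 and 44.0 TPM. Markers of border macrophages and other leukocytes had 2 of 20 called higher, Stab1 at 43.0 TPM and Ms4a7 at 18.1 TPM (1 of them under TMM factors of the TPM), and Ccr2 and Cd3e were at 0 in all 3 libraries.

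Complement, antigen presentation and interferon genes leaned to glia by smaller steps. Of 15 complement genes 4 were called higher, of 18 antigen presentation genes 2, and of 25 interferon response genes 4, with none called lower in the 3 lists. Their medians were 1.39, 0.96 and 1.16. C3, the hub of the complement cascade, was at 13, 0.71 and 0.25 TPM. Psmb8, a subunit of the immunoproteasome, was at 28.2, 3.30 and 4.55 TPM. Ifit3, an interferon-induced antiviral protein, was at 85.0, 4.79 and 6.81 TPM, 12.5-fold apart (8.80 to 18.2), on counts that were not whole. B2m, the light chain of class I molecules, was shared at 1108, 777 and 805 TPM. Under TMM factors of the TPM the higher calls were 1, 0 and 1.

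Of 33 chemokine and cytokine genes, 2 were called higher and 3 lower, all of them chemokines. Higher calls fell to 1 with CPM, and lower calls numbered 5 under TMM factors of the TPM. Cxcl12, which guides stem and immune cells, was at 21.5, 491 and 598 TPM, 22.8-fold lower in glia (19.1 to 27.5). Ccl7 and Ccl2, which attract monocytes, were at 0.58, 128 and 48.8 TPM and at 6.85, 90.6 and 41.1 TPM. For both, ICR MEF was the highest library and glia the lowest. Cx3cl1, the ligand of the microglial fractalkine receptor, was at 70.4, 7.24 and 8.14 TPM, 8.65-fold higher in glia (6.87 to 11).

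Genes linked to reactive astrocytes did not set the libraries apart as a list. Of 22, 1 was called higher (2 with CPM), 3 lower and 6 shared, and the median of 0.05 was -0.40 under TMM factors of the TPM and -0.23 with CPM. Cp, which oxidises iron, was at 178, 4.03 and 1.57 TPM, 44.2-fold apart (27.2 to 77.6). Timp1, an inhibitor of matrix proteases, was at 94.8, 771 and 718 TPM, 7.57-fold lower (6.48 to 8.89). Cd44, the hyaluronan receptor, was at 159.8, 157 and 173 TPM.

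Contractile genes were abundant in all 3 libraries. Of 47, 29 were at a shared level (61.7%), 4 were called lower and none higher (1 higher with CPM), with a median log2 ratio of -0.25. Of the 40 members at 10 TPM or more in all 3, the same 29 were shared, a share near the 71.5% over all such genes, so the agreement itself does not single the list out. The list summed to 32669, 34479.8 and 37576 TPM, against 5609 TPM in cortex and 8047 TPM in the neuron library. The shared count was 20 under TMM factors of the TPM, 25 under CPM, TMM factors of the counts and TPM without ribosomal proteins, and 29 with counts thinned to equal depth.

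Acta2, smooth muscle actin, was at 4147, 4302 and 5067 TPM, within 1.04-fold (1.02 to 1.06) of ICR MEF, and at 13.5 TPM in cortex. Tagln, an actin-binding protein of smooth muscle and myofibroblasts, was at 2565, 2399 and 3028 TPM, with glia between the fibroblasts, and at 11.1 TPM in cortex. Myl9, the regulatory light chain of smooth muscle myosin, was at 1117, 888 and 861 TPM, and Tpm1, a tropomyosin that coats actin filaments, at 1625, 2665 and 3074 TPM. Glia was thus beside the fibroblasts for these smooth muscle genes and cortex was far below. Srf, the factor that turns on many of these genes, was at 31.6, 34.5 and 32.4 TPM. Myocd, its smooth muscle partner, was at 0.11, 0.96 and 0.84 TPM. Actin genes are close in sequence and several of their counts were not whole, so their levels are less sure.

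Some calponins and tissue-specific actins differed, whereas Cnn2 and Acta2 were at a shared level. Cnn3, a calponin found in brain, was at 1941, 525 and 487 TPM, 3.69-fold higher (3.54 to 3.86) and just short of a call. Cnn1, the smooth muscle calponin, was at 341, 113 and 123 TPM, 2.76-fold higher (2.55 to 2.99). The lower calls were muscle genes. Actg2, enteric smooth muscle actin, was at 15.2, 301 and 270.4 TPM, 17.8-fold lower (13.4 to 24.2). Acta1, skeletal actin, was at 2.56, 65.0 and 112 TPM. Des, the muscle filament desmin, was at 1.04, 35.8 and 55.0 TPM, and Ankrd1, a stretch-responsive protein, at 0.45, 37.1 and 56.7 TPM.

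Upstream sequence was examined for the contractile genes because many of them are known targets of SRF. The CArG box, the site bound by SRF, was searched in its strict form: CC, 6 letters that are A or T, and GG. The search covered both strands of the 250 bases before the transcription start of RefSeq transcripts (GRCm38.p6). This strict form was present in 7 of 49 contractile promoters (14.3%, 38 genes with a promoter sequence), against 482 of 32851 promoters in all (1.47%). Since the list holds many known SRF targets, this excess follows from the choice of genes and is not a result about these libraries. Of the 7 genes, 6 were at a shared level, beside 61.7% of the whole list, and Acta1 was called lower, so the box was found on both sides. Acta2 had no match to the strict form in its window. Variants of the box were not searched, so this does not show that Acta2 lacks an SRF site. The windows of 4 shared genes with a match are printed with the match in capitals, 5′ to 3′ on the strand of the gene: Myl9 (chr2:156775214-156775463, plus strand), Cnn2 (chr10:79988350-79988599, plus strand), which encodes a calponin at 558, 724 and 748 TPM, Vcl (chr14:20929148-20929397, plus strand), the adhesion protein vinculin at 213, 301 and 310.5 TPM, and Srf itself (chr17:46556163-46556412, minus strand), which has 2 matches.
Myl9: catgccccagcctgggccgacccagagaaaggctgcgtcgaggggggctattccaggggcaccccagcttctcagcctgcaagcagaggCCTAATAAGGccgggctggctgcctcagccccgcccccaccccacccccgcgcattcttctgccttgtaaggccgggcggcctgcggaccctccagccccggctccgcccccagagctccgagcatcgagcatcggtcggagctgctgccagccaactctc
Cnn2: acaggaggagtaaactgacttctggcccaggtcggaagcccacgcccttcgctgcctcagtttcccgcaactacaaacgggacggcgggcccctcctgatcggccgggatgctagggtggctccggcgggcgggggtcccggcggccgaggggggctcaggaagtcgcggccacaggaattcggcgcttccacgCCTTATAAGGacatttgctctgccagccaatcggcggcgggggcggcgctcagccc
Vcl: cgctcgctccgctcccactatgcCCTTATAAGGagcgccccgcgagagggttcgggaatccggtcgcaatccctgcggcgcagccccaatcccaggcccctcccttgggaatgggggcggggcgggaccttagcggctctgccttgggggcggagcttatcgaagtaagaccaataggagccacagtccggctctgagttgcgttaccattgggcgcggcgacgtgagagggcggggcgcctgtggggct
Srf: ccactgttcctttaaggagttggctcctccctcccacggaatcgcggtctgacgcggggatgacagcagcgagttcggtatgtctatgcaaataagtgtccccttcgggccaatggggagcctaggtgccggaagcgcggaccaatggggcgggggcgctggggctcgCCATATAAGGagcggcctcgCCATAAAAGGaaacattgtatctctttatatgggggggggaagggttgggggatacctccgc
A match is a description of the letters and not a measured binding site.

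Fibrillar collagens and their processing enzymes had 12 of 32 called lower in glia (37.5%), 7 shared and 1 higher, with a median log2 ratio of -1.52. Col1a1, the main chain of type I collagen, was at 59.2, 3058 and 2853 TPM, 48.2-fold lower (45.2 to 51.5). Col1a2, its partner chain, was at 111, 2865 and 2571 TPM, 23.1-fold lower (22 to 24.3). Col3a1, of type III collagen in loose tissue, was at 20.5, 1206 and 920.5 TPM, 44.9-fold lower (39.3 to 51.6). Lox, which crosslinks collagen, was at 36.4, 1232 and 1034 TPM. Col1a1 and Col3a1 were at 5.19 and 6.07 TPM in cortex, so glia lay between cortex and fibroblasts. The higher call was P3h2, a prolyl hydroxylase of basement membrane collagen, at 40.5, 4.23 and 5.23 TPM. Col5a3, a minor fibrillar chain, was shared at 24.8, 21.6 and 14.3 TPM.

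Glycoproteins, small proteoglycans and elastic fibre genes had 17 of 42 called lower (40.5%), 8 shared and 2 higher. Postn, an adhesion protein of fibroblasts, was at 2.97, 358 and 215 TPM, 72.4-fold lower (48.5 to 113). Dcn and Lum are small leucine-rich proteoglycans that bind collagen. Dcn was at 2.92, 82.6 and 49.4 TPM, and Lum at 0.94, 32.4 and 20.4 TPM. Relatives of these in the same family went the other way: Fmod was at 401, 63.6 and 21.6 TPM, 6.30-fold higher (5.74 to 6.92), and Prelp was at 255, 32.4 and 8.40 TPM. For both, the MEF libraries also differed from each other, with OG2 MEF the lowest. Sparc, a collagen-binding secreted protein, was shared at 3706, 3203 and 2832 TPM. Fn1, fibronectin, was at 1018, 2541 and 2036 TPM, 2-fold lower (1.97 to 2.03).

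**Figure D4:**
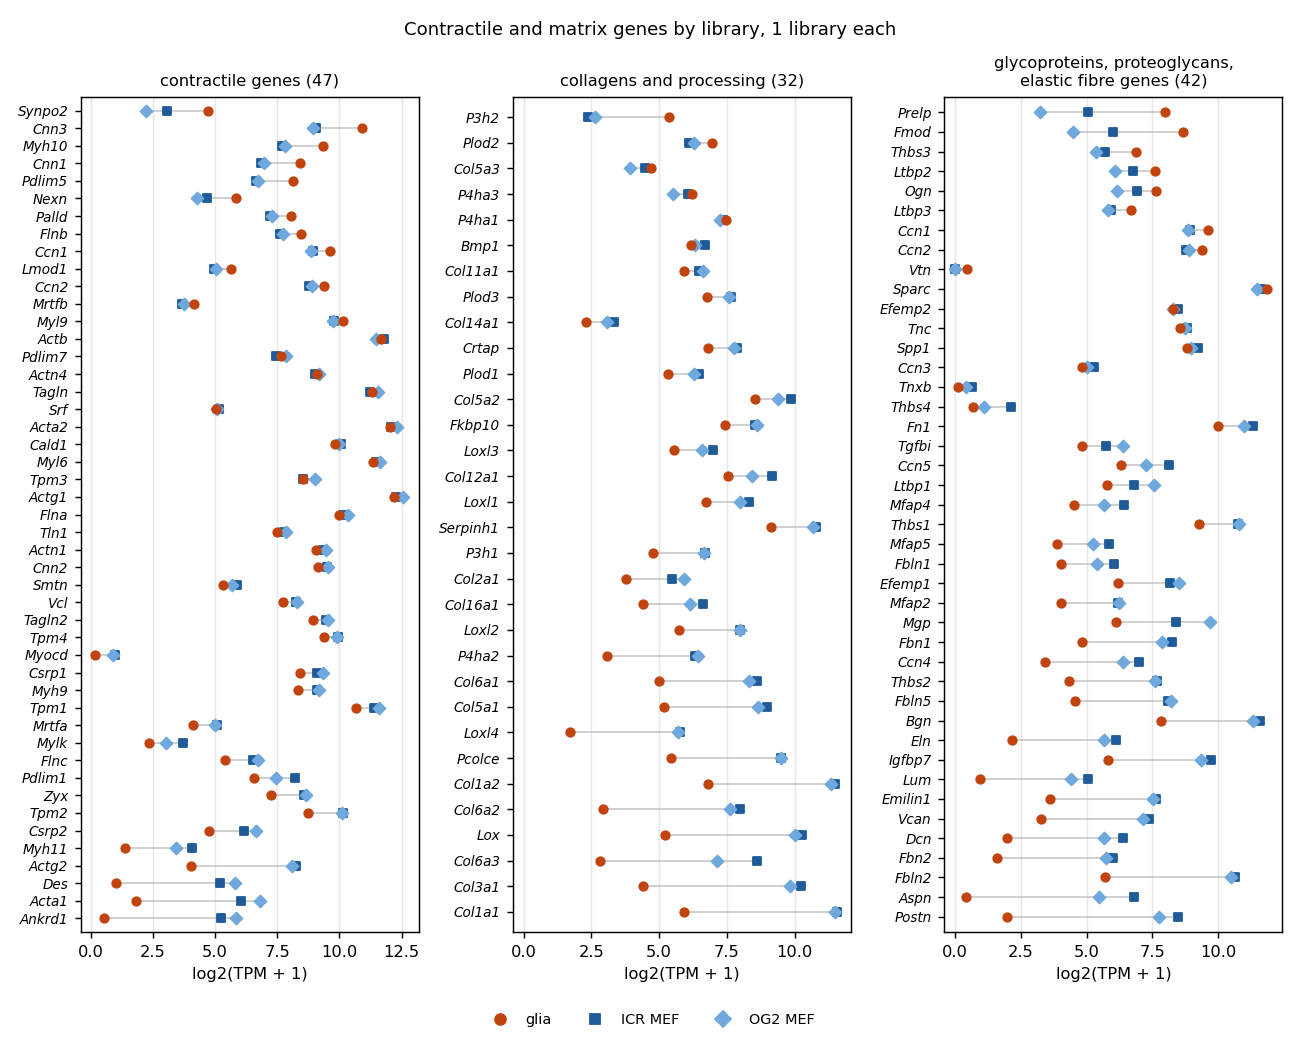
TPM with 1 added, on a log2 axis, of contractile genes, collagens with their processing genes, and glycoproteins, proteoglycans and elastic fibre genes in glia (circles), ICR MEF (squares) and OG2 MEF (diamonds), 1 library each. The 3 symbols overlap for Acta2 and Tagln, and glia falls far left of both fibroblast libraries for Col1a1, Col3a1 and Postn.

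Of 23 basement membrane genes, 4 were called higher and 3 lower, with a median of 0.67. The balance turned with the scale: TMM factors of the TPM gave 1 higher and 4 lower, and TMM factors of the counts 2 higher and 4 lower. Col4a6, a chain of the network around smooth muscle and epithelium, was at 80.4, 2.68 and 2.09 TPM, 30-fold higher (22.5 to 40.9). Lama5, the long laminin chain of vessels and pial surface, was at 165, 35.1 and 19.4 TPM. Lama4, the laminin chain of mesenchyme and endothelium, was at 6.62, 78.9 and 61.0 TPM, 9.22-fold lower (7.55 to 11.3). Col4a1, of the common type IV network, was shared at 204, 367 and 296 TPM.

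Integrins, the receptors for matrix, followed a like division with 4 of 21 higher, 2 lower and 4 shared, counting the collagen receptors Ddr1 and Ddr2 in the list. Itgb8, the subunit by which astrocytes activate latent TGF-beta, was at 53.4, 1.13 and 0.66 TPM, 47.3-fold higher (31.6 to 74.1). Itga11, a fibroblast receptor for fibrillar collagen, was at 1.92, 59.4 and 47.9 TPM, 24.9-fold lower (16.9 to 38.4). Itgb1, the common partner chain, was shared at 1203, 959.7 and 909 TPM. Among matrix proteases and their inhibitors 2 of 30 were higher (1 with CPM), 6 lower and 9 shared. Mmp2, a gelatinase, was at 21.9, 212 and 158 TPM and was lower in glia than in both fibroblast libraries. Timp2 was shared at 894, 824 and 821 TPM.

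Replication and mitosis genes were expressed in all 3 libraries, and the mitosis genes leaned to glia. Of 40 DNA replication genes, 31 were shared (77.5%) and none was called in either direction, whereas 1 was called lower with CPM and 1 with TMM factors of the TPM. Of 41 mitosis genes, 25 were shared (61.0%) and none was called. Of the members at 10 TPM or more in all 3 libraries these were 31 of 35 and 25 of 37, to be read against the 71.5% over all such genes. The lists summed to 2212 and 3282 TPM in glia, against 1674 and 2080.3 TPM in ICR MEF, 1671 and 1886 TPM in OG2 MEF, and 543 and 229.7 TPM in cortex. Most members lay above both MEFs, 28 of 40 and 35 of 41, beside 48.3% of protein-coding genes. The medians were 0.31 and 0.72, beside 0.42 for genes at a mean of 10 TPM or more. The median of the replication genes was -0.22 under TMM factors of the TPM, and that of the mitosis genes 0.19.

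Mcm5, part of the helicase that opens DNA for replication, was at 46.1, 42.3 and 45.6 TPM, within 1.01-fold (0.884 to 1.15). Bub3, of the mitotic checkpoint, was at 105 TPM in each library. Cdk1, the kinase that starts mitosis, was at 288, 166 and 188 TPM, 1.54-fold apart (1.36 to 1.73), and at 1.34 TPM in cortex. Mki67, the Ki-67 antigen of dividing cells, was at 90, 39.8 and 25.6 TPM, and at 1.15 TPM in cortex. Ccne1, the cyclin of entry into DNA synthesis, was lowest in glia, at 16.1, 64.8 and 51.7 TPM. Cdk1 and Mki67 were thus high in glia and fibroblasts and near 1 TPM in cortex.

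**Figure D5:**
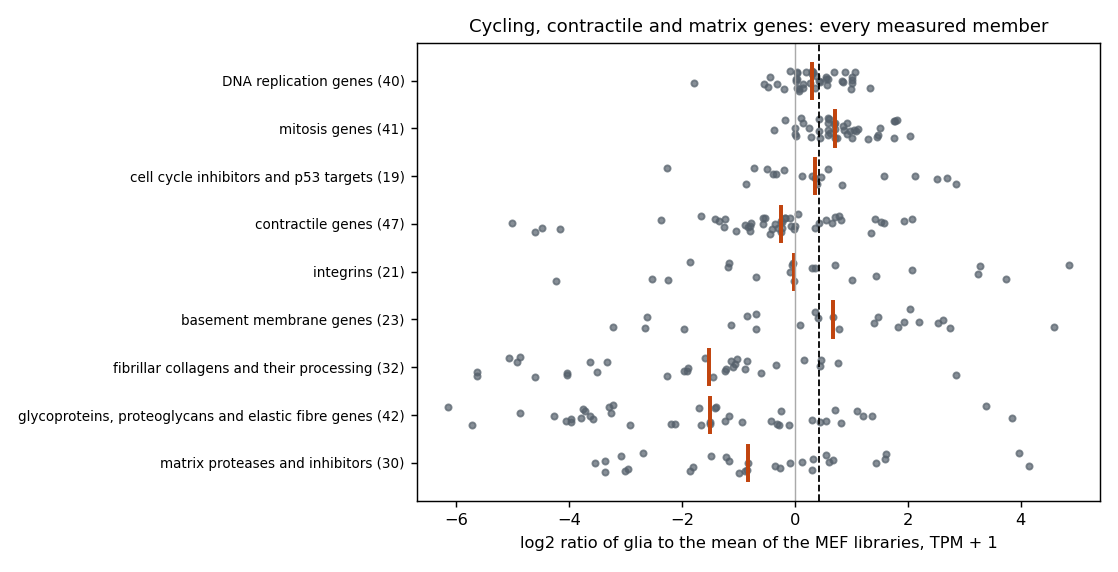
Log2 ratio of glia to the mean of the 2 MEF libraries, on TPM with 1 added, for every measured member of 9 lists (points), with the list median (thick bar), 0 (grey line) and the median of 0.42 over genes with a mean of 10 TPM or more (dashed line). Replication and mitosis genes sit close to the dashed line, with medians of 0.31 and 0.72, whereas fibrillar collagens and glycoproteins reach far left, with medians of -1.52 and -1.50.

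Of 19 cell cycle inhibitors, regulators and p53 targets, 4 were called higher, 1 lower and 13 shared (68.4%). All 19 were at 10 TPM or more in all 3 libraries, and 71.5% of all such genes were shared. Higher calls numbered 2 under TMM factors of the TPM. Ccnd1, cyclin D1, which links growth signals to the cycle, was at 1568, 224 and 206 TPM, 6.99-fold higher (6.69 to 7.32). Cdkn1b and Cdkn2c are inhibitors of cyclin-dependent kinases. Cdkn1b was at 133, 29.4 and 30.3 TPM, and Cdkn2c at 94.4, 16.6 and 14.8 TPM. Cdkn1c, an imprinted inhibitor, was the lower call at 13.4, 58.6 and 78.9 TPM. Cdkn2a, which encodes p16 and p19ARF and accumulates in culture, was shared at 55.6, 101 and 103 TPM, and was at 0.64 TPM in cortex. Cdkn1a, the p53 target p21, was shared at 411, 481 and 456 TPM.

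Mitosis genes were searched for CCAAT, the site of NF-Y, and TTTGAA, a form of the cell cycle homology region, on both strands in the same windows. CCAAT was present in 27 of 36 mitosis promoters (75.0%, 33 genes), against 33.8% of all promoters, and TTTGAA in 13 of 36 (36.1%) against 16%. As with the CArG box, these shares follow from the choice of genes and are not a result about these libraries. In contractile promoters CCAAT was present in 42.9% and TTTGAA in 10.2%. CCAAT was also above the share of all promoters in HOX genes (58.3%), DNA replication genes (52.8%) and astrocyte filament, enzyme and secreted genes (45.7%). In fibrillar collagens and their processing genes it was at 33.3%. A high share of CCAAT was thus not particular to cycling genes. The windows of Cdk1 (chr10:69352913-69353162, minus strand) and of Ccnb2 (chr9:70421555-70421804, minus strand), the cyclin B2 gene at 78.6, 57.5 and 56.8 TPM, hold 3 CCAAT matches each and are printed with these in capitals, where ATTGG is the same site on the other strand.
Cdk1: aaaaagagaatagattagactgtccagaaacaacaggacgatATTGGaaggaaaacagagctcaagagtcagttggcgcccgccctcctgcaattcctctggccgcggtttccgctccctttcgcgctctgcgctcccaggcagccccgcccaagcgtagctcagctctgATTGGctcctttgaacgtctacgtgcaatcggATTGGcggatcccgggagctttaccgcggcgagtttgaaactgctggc
Ccnb2: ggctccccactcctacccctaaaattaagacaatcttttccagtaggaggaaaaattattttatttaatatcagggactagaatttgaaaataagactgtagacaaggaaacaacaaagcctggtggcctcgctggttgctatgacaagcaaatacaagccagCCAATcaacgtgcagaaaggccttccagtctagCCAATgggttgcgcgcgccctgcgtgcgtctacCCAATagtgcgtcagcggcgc

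Imprinted genes, which are active from 1 parental copy and mostly in the embryo, had 6 of 25 called lower in glia and 1 higher. With CPM 6 were lower and 0 higher, and under TMM factors of the TPM 8 were lower and 0 higher. H19 and Igf2 lie beside each other (chr7:142575529-142578143 and chr7:142650766-142666816, minus strand) and are known to share enhancers. Igf2, a growth factor of the fetus, was at 9.99, 2266 and 3089.8 TPM, 227-fold lower in glia (184 to 283). H19, a noncoding RNA, was at 25.9, 4622 and 5859 TPM, 178-fold lower (152 to 211). Mest, a hydrolase-like gene of mesoderm, went the other way at 769, 150.1 and 105 TPM. The embryonic age of the MEFs and their cell type cannot be told apart here.

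Markers of other cells that brain glia could include were read for the whole list each. Leptomeningeal genes had 4 of 24 higher and 7 lower and summed to 11157, 3634 and 3298 TPM. Igfbp2, a binding protein for insulin-like growth factors, alone made up 10579.8 TPM in glia, against 62.0 and 29.6 in the MEFs and 69.0 in cortex. Of the list's 6 transporters, Slc6a13, Slc22a6, Slc22a8 and Slc47a1 were at 0 in all 3. The dicarboxylate transporter Slc13a3 was called higher, at 26.9, 0 and 0 TPM, and Slc13a4 was at 1.2, 0.19 and 0 TPM. The other higher calls were Aldh1a1, a retinaldehyde dehydrogenase, at 125, 3.83 and 4.42 TPM, and Bmp6, a bone morphogenetic protein, at 59.7, 0.97 and 0.55 TPM. Pericyte genes had 3 of 15 called lower and none higher, and summed to 69.3, 224 and 179.6 TPM. Endothelial genes had 2 of 16 higher and 2 lower. The higher calls were Slco1a4, an organic anion transporter of vessels that astrocytes can also carry, at 135, 0 and 0 TPM, and Mfsd2a, a lipid transporter, at 97.5, 5.46 and 3.27 TPM. The lower calls were Flt1, a receptor for vascular endothelial growth factor, at 1.74, 16.3 and 12 TPM, and Ly6c1, a surface antigen, at 1.63, 128 and 36 TPM. The endothelial markers Pecam1 and Cldn5 were at 0 in all 3. Their part in the contractile and matrix levels was not tested.

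Ependymal and choroid plexus genes had 3 of 12 called higher, and 1 with CPM. Foxj1, the factor of cells with motile cilia, was at 170.2, 0 and 0 TPM, at least 386-fold higher, and at 5.34 TPM in cortex. Ttr, the transthyretin of choroid plexus, was at 4.13, 0 and 0 TPM. Neuronal genes had 2 of 16 called higher, Stmn2, a regulator of microtubules in growing axons, at 288, 51.0 and 51.1 TPM, and Syp, a synaptic vesicle protein, at 10.1, 0 and 0.13 TPM. Under TMM factors of the TPM neither of them was called.

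Genes outside the lists are named where they were among the 15 with the largest log2 ratio in a direction. A2m, a broad protease inhibitor, was at 253, 0.56 and 0.21 TPM, and Rtn1, a reticulon of the endoplasmic reticulum in neural cells, at 314, 1.16 and 0.39 TPM. In the fibroblasts, Lrrc17, a secreted leucine-rich protein, was at 132 and 137 TPM against 0.53 in glia. Il1rn, the interleukin 1 receptor antagonist, was at 146 and 141 TPM against 1.06. Il1rl1, the receptor for interleukin 33, was at 174 and 109 TPM against 1.60. The largest lower ratios, of Hmga1b and Eno1b, are uncertain because each shares reads with a near-identical gene and had counts that were not whole.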

How the data were processed

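RNA was measured in 8 mouse libraries, 1 per group; 1 library was not analysed here and 4 brain libraries (cortex, hippocampus, cerebellum, neuron) serve only to set levels beside. Per the submitters' processing notes, reads were processed with Bowtie and RSEM, without versions, on mm10. Which annotation was used, and whether reads kept their strand, is not stated there. Expected counts per gene were deposited as RSEM estimates them, per the file headers. The authors deposited TPM beside the counts, and the effective length of each gene in bases as well, per the file headers. Recomputed from counts and lengths, the deposited TPM agree within 1% for 100.0% of values of 10 TPM or more in glia, ICR MEF and OG2 MEF. Lower values and the other libraries were not checked in this way. Reads shared by similar genes are split by RSEM, and counts that are not whole are named where they matter.

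Calls use TPM with 1 added, a floor of 10 TPM and a fold of 4 (shared: within 2). Only in the folds given for single genes do 0 counts stand as 3 counts. Simulated data served to test the rule. The comparison, its 35 gene lists (Mx2 was not matched) and the named genes, which are list members or among the 15 largest ratios or highest shared levels per direction outside predicted, ribosomal, histone and small RNA genes, were chosen with earlier results of these data known. Another 4 lists were added after seeing the values. Promoters are from RefSeq (GRCm38.p6) and gene coordinates from GENCODE release M21.

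Alternatives were 0.1 or 5 TPM added, a floor of 1 TPM, a fold of 8, TMM factors of the counts, CPM, removal of ribosomal protein genes, counts thinned to 4805968, each MEF library left out, and, added after seeing the data, TMM factors of the TPM. Tools were edgeR 4.0.16 in R 4.3.3, used only to compute TMM factors, and Python 3.11.15 (pandas 2.3.3, numpy 2.4.6, matplotlib 3.10.9, scipy 1.17.1). No test was run, as each group held 1 library. Some list members enter the counts and are not reported by name here.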

Additional observations from a re-analysis of the deposited data

How the results depend on the processing

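With 5 TPM added, 618 genes were called higher, 203 lower, and the list calls were 9 lower for mesenchymal factors, 7 lower for HOX genes and 13 higher for microglia genes. A fold of 8 left 554 genes higher and 168 lower, and a shared level within 1.5-fold left 3408. TMM factors of the TPM gave 678 higher and 471 lower; these factors lower glia against the MEFs, so they could only remove higher calls and add lower ones. A floor of 1 TPM gave 25 lower HOX genes. Leaving out a MEF library gave 1181 to 1339 genes higher, 351 to 409 lower and 5680 to 6095 shared; since a call needs both MEF libraries, leaving 1 out can only add calls. No called gene of the 479 named or listed genes tested changed sign under these settings. This outcome was largely fixed in advance, since a call needs a 4-fold gap. The TMM factors of the TPM, 1.285 for glia and 0.914 and 0.851 for ICR MEF and OG2 MEF, are too close to reverse such a gap. Scale-dependent values moved most under TMM factors of the TPM, for 77 genes, and with 5 TPM added, for 67. No paired analysis was possible because each group held 1 library. At this depth, genes under about 1 TPM rest on few counts, and a level of 0 does not show absence. Spread between animals or preparations is not covered by any interval. Strain, cell type, sex and any difference in age cannot be told apart.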

Other observations

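The following lists were chosen after their values were seen, so their counts are descriptions. Genes of motile cilia, the beating organelles of ependyma, had 16 of 46 called higher in glia and none lower, with a median log2 ratio of 2.27; 41 lay above both MEF libraries. Enkur, a protein of the sperm and cilium axoneme, was at 38.9 TPM in glia, 0 in ICR MEF and 0.30 in OG2 MEF, and Ccdc39, needed to assemble the inner dynein arms, at 10, 0.53 and 0.55 TPM. Mcidas, an early regulator of multiciliated cells, was at 0.16, 0 and 0 TPM, and the dynein heavy chain gene Dnah5 at 1.00, 0 and 0 TPM. The list summed to 643 TPM in glia, 106 and 81.9 TPM in the MEFs and 303 TPM in cortex. Higher calls numbered 10 under TMM factors of the TPM.

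Genes of the amino acid response, which are switched on through ATF4 when amino acids run short, had 9 of 32 called lower in glia and none higher, with a median of -1.44. Lower calls numbered 14 under TMM factors of the TPM. Trib3, a pseudokinase induced by that pathway, was at 0.71, 69.0 and 66.3 TPM, 93.4-fold lower (31.7 to 455), and Asns, which makes asparagine, at 25.4, 162 and 172 TPM, 6.38-fold lower (5.28 to 7.76). Atf4 itself was at 154, 344 and 259.9 TPM. The labels do not state medium or feeding before lysis.

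Of 17 insulin-like growth factor genes and related factors, 3 were called higher, 6 lower and 2 shared. The binding proteins Igfbp5 and Igfbp3 were at 2337, 112 and 173 TPM and at 981, 202 and 87.2 TPM, whereas the binding proteins Igfbp7 and Igfbp6 were called lower, at 55.0, 859.8 and 661 TPM and at 7.69, 74.0 and 111 TPM. Hmga2, a chromatin protein of embryonic cells placed in this list, was at 7.83, 303 and 326 TPM, 38.7-fold lower in glia (30.9 to 49.1). Of 18 S100 and annexin genes, 4 were called lower and 6 were shared. S100a4, also called fibroblast-specific protein, was at 278, 4366 and 3356 TPM, 12.1-fold lower (10.6 to 13.9), and at 13 TPM in cortex.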
